A study of Caenorhabditis elegans with 2 samples.

Results

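The C. elegans microRNAs (miRNAs) described here are the early-numbered ones that belong to none of the large families. They were taken by name alone: all arms and copies of miR-59, 63, 67, 70, 76, 77, 78, 85 and 86, of 13 numbers from miR-230 to miR-255, and of the numbers from miR-256 to miR-273 except miR-266 and miR-269. Of the 38 numbers in that rule 37 were found, and miR-263 was not analysed here. They gave 57 mature loci from 38 hairpins, out of 375 mature loci from 223 hairpins in the deposited table. Small RNA was sequenced from whole worms of the wild-type strain N2, with age given as Day 1. One group had received enoxacin, a fluoroquinolone antibiotic known in mammalian cells to bind the Dicer partner TRBP, and the other its vehicle. Both groups shared strain and age, and the sources used here give no dose or length of treatment. Each group was 1 library, and the submitters state that the worms came from 3 independent experiments.

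A miRNA is cut from a hairpin precursor by Drosha and then Dicer, and 1 strand of the resulting duplex, from the 5p or the 3p arm, is mostly kept by an Argonaute protein, ALG-1 or ALG-2 in the worm. The strand kept guides Argonaute to messenger RNAs through its seed, a short stretch near the 5′ end, and miRNAs with the same seed form a family. Mature sequences were not used here, so seeds named as shared below are textbook background.

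The vehicle library held 10698845 reads and the enoxacin library 8787665 by the authors' totals, and mature miRNA loci took 3.74% and 3.78% of them. Levels are in RPM, the reads at a locus scaled to that total, without length scaling, since the compared miRNAs are all 19 to 24 nt long. A single library per group leaves no replicate error, so nothing was tested. Intervals are exact, at 95%, and cover counting error only. The comparison took loci whose reads in the 2 libraries summed to 20 or more. A locus counts below as higher or lower in enoxacin where its ratio passed 1.5-fold and its interval excluded 1. The whole-worm label was set against tissue miRNAs. The muscle miRNA miR-1-3p had 403 RPM in vehicle and 364 in enoxacin, and the neuronal miR-124-3p had 16.3 and 13.8, while neuronal lsy-6 had no read in either. The intestinal miR-60-3p had 45.6 and 103 RPM. Of the embryonic miRNAs, miR-35-3p had 929 and 738 RPM, and the more abundant miR-36-3p had 2712 and 2614. The epidermal and glial miR-228-5p had 122 and 123 RPM. The part of such tissue differences in the values below was not tested, and in whole worms fewer cells of a type and less RNA per cell cannot be told apart.

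Detection followed the numbering. Of the 17 loci from miR-59 to miR-86, 16 had a read and 11 reached the minimum of 20. Of the 23 loci from miR-230 to miR-255, 18 had a read and 7 reached the minimum. Of the 17 loci from miR-256 to miR-273, 4 had a read and 1, miR-259-5p, reached the minimum, while 13 (76.5%) had no read in either library. Together 38 of the 57 loci had a read, 32 of them in both libraries, and 19 were compared. Over all miRNAs 257 of 375 loci had a read and 152 were compared, and 31.5% had no read, against 33.3% of the 57.

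**Figure D1:**
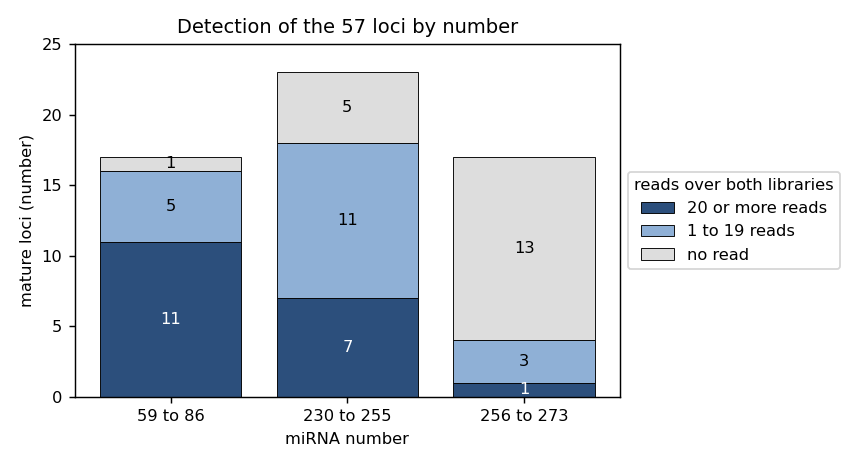
Number of mature loci (vertical axis) in each range of miRNA numbers, split by their reads summed over both libraries. The range from miR-256 to miR-273 holds 13 of the 19 loci without a read, and the range from miR-59 to miR-86 holds 11 of the 19 loci with at least 20 reads.

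Detection also followed how the hairpins are named, a split that was not made over all miRNAs. Where a hairpin has both a 5p and a 3p entry, the 19 entries of the 3p arm all had a read, and 14 of the 19 entries of the 5p arm did. Of the 19 loci entered without an arm, 5 had a read: miR-78, miR-248, miR-254, miR-260 and miR-262. The 14 others had none, namely miR-242, miR-256, miR-257, both copies of miR-258, miR-261, miR-264, miR-265, miR-267, miR-268, miR-270, miR-271, miR-272 and miR-273. All of these but miR-242 are in the range from miR-256 to miR-273, so naming and numbering cannot be told apart for them. The other loci without a read were the 5p arms of mir-59, mir-234, mir-243, mir-245 and mir-249. A count of 0 was read as a limit of 3 reads, which is 0.280 RPM in the vehicle library and 0.341 RPM in the enoxacin library. The exact Poisson interval of 0 reads ends slightly higher, at 0.345 and 0.420 RPM, so at this depth a locus without a read could have a level up to these.

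Together the 57 loci took 9688 reads in vehicle and 9723 in enoxacin. Of all miRNA reads this was 2.42% in vehicle, with an exact binomial interval from 2.37 to 2.47%. In enoxacin it was 2.93% (2.87 to 2.98%). Their summed level went from 906 RPM in the vehicle library to 1106 RPM in the enoxacin library, a ratio of 1.22 (1.19 to 1.26), against 1.01 for all mature loci. Both are ratios of summed reads with the authors' totals, and the median ratio of the 152 compared loci was 1.09. Median-of-ratios and TMM scaling shift every log2 ratio by -0.15 and -0.14. Most of these reads came from 5 arms, miR-77-3p, miR-86-5p, miR-67-3p, miR-85-3p and miR-231-3p, which held 91.0% of them in vehicle (90.4 to 91.6%) and 89.9% in enoxacin (89.3 to 90.5%). These 5 were also the only ones of the 57 among the 50 most abundant loci of the table in either library. The summed level was higher by 201 RPM in enoxacin, and 3 arms gave most of that difference: miR-77-3p with 71.5 RPM, miR-85-3p with 71.0 RPM and miR-86-5p with 48.9 RPM.

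**Figure D2:**
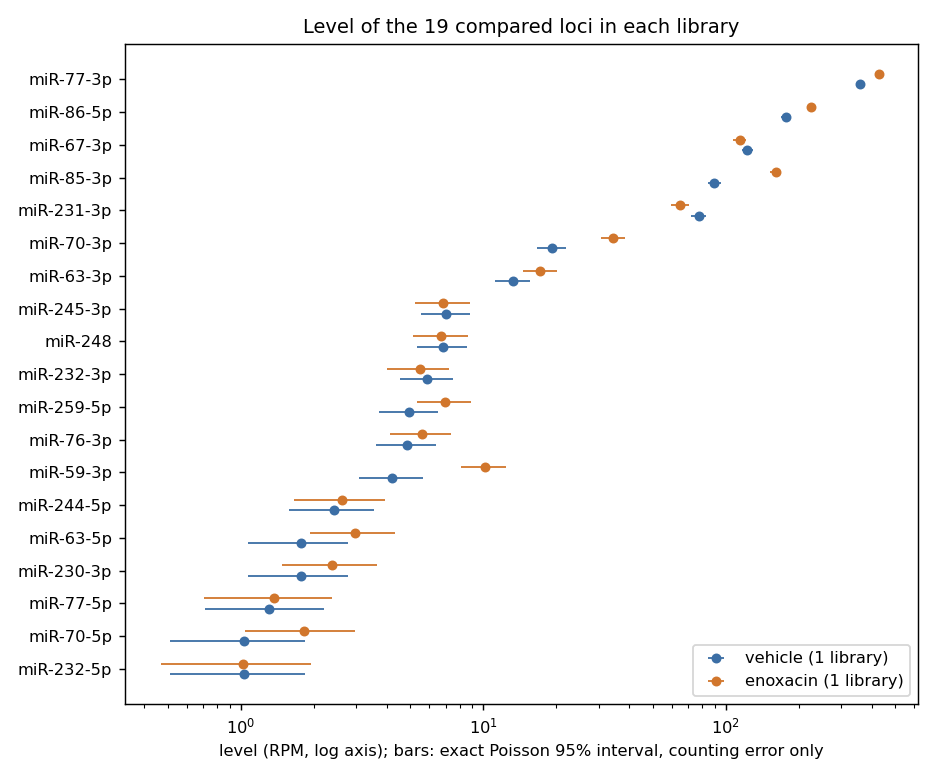
Level in RPM (log axis) of the 19 compared loci in the vehicle and the enoxacin library, with bars for the exact Poisson 95% interval of the count. miR-232-5p is lowest in vehicle together with miR-70-5p, at 1.03 RPM, and miR-77-3p highest, at 357 RPM in vehicle against 429 RPM in enoxacin, and miR-85-3p lies below miR-67-3p in vehicle but above it in enoxacin.

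miR-77-3p was the most abundant of them, at rank 21 of all mature loci in vehicle and rank 19 in enoxacin. The vehicle library held 3824 of its reads (357 RPM, exact Poisson interval 346 to 369) and the enoxacin library 3769 (429 RPM, 415 to 443). The ratio was 1.20 (1.15 to 1.26), so the level was higher in the enoxacin library beyond counting error but short of 1.5-fold. Its locus lies on chromosome II from 12519265 to 12519286 on the plus strand (ce10), and the hairpin overlaps no other gene in the WBcel235 annotation. The 5p arm of the same hairpin had 14 and 12 reads, a ratio of 1.04 (0.441 to 2.43).

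miR-86-5p came next, at 177 RPM in vehicle from 1890 reads and 226 RPM in enoxacin from 1982 reads, a ratio of 1.28 (1.20 to 1.36). Again the interval excluded 1 and the fold stayed under the criterion. The hairpin lies within an intron of the protein-coding gene Y56A3A.7, on its strand. miR-86-5p shares its seed with miR-785, which had only 3 reads in vehicle and 10 in enoxacin. Nearly all reads of this pair were thus miR-86-5p in both libraries, and other loci with this seed were not searched for.

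miR-85-3p was the most abundant of the 3 loci that counted as higher. In worms mir-85 is known for its role in recovery from heat shock. Its level was 89.8 RPM in vehicle (961 reads, interval 84.2 to 95.7 RPM) and 161 RPM in enoxacin (1413 reads, 153 to 169 RPM). The ratio was 1.79 (1.65 to 1.95), the narrowest interval among the 3. Its locus is on chromosome II from 8393566 to 8393589, plus strand (ce10). In WBcel235 the hairpin lies opposite an intron of F49E12.8 and opposite the non-coding RNA gene F49E12.14. The sources used here do not say how strand was handled, so reads of the hairpin and of this antisense gene cannot be told apart.

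miR-67-3p, whose worm sequence is widely used as a negative control in mammalian cells, differed little between the libraries. Its level was 123 RPM in vehicle (1315 reads, 116 to 130 RPM) and 114 RPM in enoxacin (1006 reads, 108 to 122 RPM), a ratio of 0.931 (0.857 to 1.01). Its hairpin lies within an intron of zmp-1, with the non-coding RNA gene EGAP1.4 on the opposite strand. miR-67-3p and miR-85-3p thus changed places, at ranks 32 and 40 in vehicle and 34 and 32 in enoxacin. For each miR-67-3p read there were 0.731 miR-85-3p reads in vehicle and 1.40 in enoxacin, a quotient of 1.92 (exact conditional interval 1.71 to 2.16). This quotient does not depend on the library totals, and the pair was chosen after its values were seen.

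miR-231-3p had the lowest ratio of the 19. It stood at 77.4 RPM in vehicle (828 reads, 72.2 to 82.8 RPM) and 65.0 RPM in enoxacin (571 reads, 59.8 to 70.5 RPM), a ratio of 0.840 (0.753 to 0.935). With the authors' totals it was the 1 locus of the 19 whose interval lay below 1, at less than 1.5-fold; with median-of-ratios or TMM scaling miR-67-3p was a further one. It shares its seed with miR-787-3p, which had 4 and 2 reads. In WBcel235 the hairpin overlaps an exon of the long non-coding RNA gene linc-57 on the same strand, so reads from that transcript could be counted with it.

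miR-59-3p had the highest ratio of the 19 compared loci. It rested on 45 reads in vehicle, 4.21 RPM (3.07 to 5.63), and 89 reads in enoxacin, 10.1 RPM (8.13 to 12.5). The ratio was 2.41 (1.66 to 3.53), and its rank moved from 95 in vehicle to 74 in enoxacin. The locus lies on chromosome IV from 11309147 to 11309169 on the minus strand (ce10), where WBcel235 has no other gene over the hairpin. Its 5p arm had no read in either library.

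The mir-70 hairpin, within an intron of pmp-5 on the same strand, gave similar ratios for both arms. miR-70-3p was at 19.2 RPM in vehicle (205 reads, 16.6 to 22.0 RPM) and 34.3 RPM in enoxacin (301 reads, 30.5 to 38.3 RPM), and counted as higher with a ratio of 1.79 (1.49 to 2.15). miR-70-5p had 11 and 16 reads and a ratio of 1.77 (0.772 to 4.22), which passed 1.5-fold with an interval that included 1. The miR-70-3p locus is on chromosome V from 6665535 to 6665557, minus strand (ce10).

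mir-63 carries the seed of the mir-64, mir-65, mir-66 and mir-229 hairpins, but lies apart from them on chromosome X. miR-63-3p was at 13.3 RPM in vehicle from 142 reads and 17.2 RPM in enoxacin from 151, a ratio of 1.29 (1.02 to 1.64). miR-63-5p had 19 and 26 reads, a ratio of 1.67 (0.887 to 3.18), and was the other locus past 1.5-fold whose interval included 1. Of its seed relatives, miR-64-5p and miR-65-5p were at 1.31 and miR-229-5p was at 1.254, all inside the interval of miR-63-3p, while miR-66-5p was at 0.852, outside it.

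The other 8 compared loci were at 7.01 RPM or less in both libraries, and the interval of each included 1. miR-76-3p had 52 and 49 reads in vehicle and enoxacin, with a ratio of 1.15 (0.760 to 1.73). miR-245-3p had 75 and 60 reads (0.974, 0.682 to 1.39), and miR-248 had 73 and 59 (0.984, 0.686 to 1.41). These 3 levels were within counting error of each other between the libraries. Of the mir-232 arms, miR-232-3p had 63 and 48 reads (0.928, 0.624 to 1.37) and miR-232-5p had 11 and 9 (0.996, 0.365 to 2.64). miR-259-5p had 53 and 61 reads, a ratio of 1.40 (0.954 to 2.06), with the non-coding RNA gene F25D1.9 opposite its hairpin. miR-230-3p had 19 and 21 reads (1.35, 0.689 to 2.65), and miR-244-5p had 26 and 23 (1.08, 0.587 to 1.96). At these counts differences inside the intervals were not detectable.

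**Figure D3:**
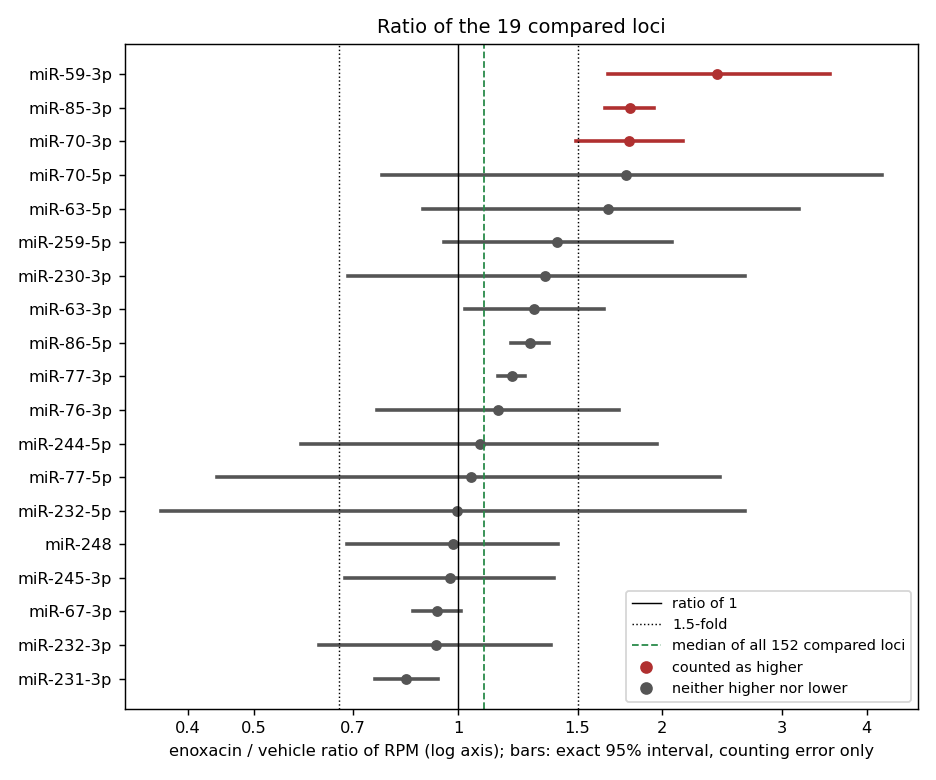
Ratio of enoxacin to vehicle RPM (log axis) of the 19 compared loci, with exact 95% intervals for counting error. The solid line marks a ratio of 1, the dotted lines 1.5-fold either way and the dashed line the median of all 152 compared loci, 1.09; the 3 loci counted as higher are miR-59-3p, miR-85-3p and miR-70-3p.

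Counted over the list, 3 of the 19 compared loci (15.8%) were higher in enoxacin, 0 were lower and 16 were neither. Over all 152 compared loci 13.2% were higher and 7.89% were lower, so the share of higher loci was near the background. At any fold, the interval lay above 1 for 6 of the 19, against 32.2% of all compared loci, and below 1 for 1 of the 19, against 17.1%. With median-of-ratios or TMM scaling these counts were 5 above and 2 below, since the interval of miR-63-3p then included 1 and that of miR-67-3p lay below it. Over all compared loci they went from 49 above and 26 below to 31 and 36 with the first scaling, and to 32 and 35 with the second. The median ratio of the 19 was 1.20, with quartiles of 0.990 and 1.53 and a range from 0.840 to 2.41. The median of all compared loci was 1.09.

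The ratios were also read by number. Of the 11 compared loci from miR-59 to miR-86, 10 had a ratio above 1, where 63.2% of all 152 compared loci did. miR-67-3p was the exception below 1. In this range 3 loci (27.3%) counted as higher, against 13.2% of all 152, and the median ratio was 1.29. The interval included 1 for 5 of the 11. Both arms of mir-63, mir-70 and mir-77 are among the 11 as separate loci. Of the 7 compared loci from miR-230 to miR-255, 2 had a ratio above 1, miR-230-3p and miR-244-5p, and none passed the criterion, with a median of 0.984. The interval included 1 for 6 of the 7, and both arms of mir-232 are among them as separate loci. These counts use the authors' totals. With median-of-ratios or TMM scaling miR-77-5p and miR-244-5p also fell below 1. The median log2 ratio of all compared loci was then -0.02 or -0.01. Summed reads of the first range went from 8495 in vehicle to 8827 in enoxacin, a ratio of 1.27 (1.23 to 1.30). Those of the second went from 1127 to 824, a ratio of 0.890 (0.813 to 0.975), and most of them were miR-231-3p. These are counts over members of a list in 2 libraries, with no test of the difference between the ranges.

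No difference in arm use between the libraries was detectable at this depth. Of the 19 hairpins with both arms entered, 14 had at least 20 reads. The 3p arm was the more abundant in 11 of them, and the 5p arm in 3, mir-86, mir-244 and mir-259. The intervals of the minor arm's share overlapped between vehicle and enoxacin in all 14, many of them wide, which does not show that the shares were equal. The median minor share was 2.15% in vehicle and 0.158% in enoxacin. These medians differ mainly through a few reads of mir-76 and mir-244. Their minor arms had 2 and 6 reads in vehicle and 0 each in enoxacin. In most of the 14 hairpins, among them mir-76, mir-67, mir-231 and mir-244, the minor arm had 6 reads or fewer in either library. In mir-77, mir-85, mir-86, mir-67 and mir-231, the 5 most abundant hairpins, the minor arm made up between 0.0504% and 0.600% of the reads. For mir-85 it was 1 of 962 reads in vehicle and 2 of 1415 in enoxacin.

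Larger minor shares were found in some of the hairpins with fewer reads. Others of these had few or no reads of the minor arm. It had none in mir-59 and mir-245, and in mir-76 it took 3.70% in vehicle and 0% in enoxacin. In mir-63 the 5p arm took 11.8% of 161 vehicle reads, with an exact binomial interval of 7.26 to 17.8%. It took 14.7% of 177 enoxacin reads (9.83 to 20.8%). In mir-70 it took 5.09% (2.57 to 8.93%) and 5.05% (2.91 to 8.07%), from 11 and 16 reads. These 2 shares were close, but a difference inside the intervals was not detectable. In mir-232 the 5p arm took 14.9% and 15.8%, and in mir-230 17.4% and 19.2%. In mir-259 the minor 3p arm had 4 reads in each library, 7.02% and 6.15%. The widest gap was in mir-244, whose 3p arm had 6 of 32 reads in vehicle, 18.8% (7.21 to 36.4%), and 0 of 23 in enoxacin, where the limit of 3 reads set for a count of 0 gives a share of 13.0% and the exact binomial interval ends at 14.8%. With the 0 set to the floor of 3 reads, the miR-244-3p level was 1.64-fold lower in enoxacin. The interval of its ratio, from 0 to 1.03, included 1, so a lower level was not shown.

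**Figure D4:**
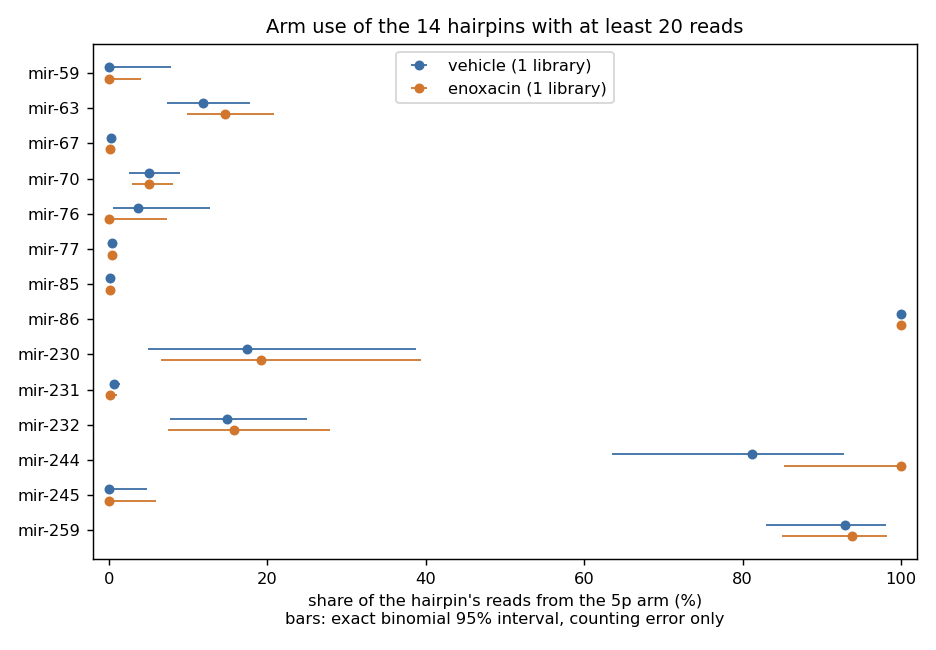
Share of each hairpin's reads that came from its 5p arm, in percent, for the 14 hairpins with at least 20 reads over both arms and libraries, with exact binomial 95% intervals. Hairpins at the left use mainly the 3p arm, mir-86, mir-244 and mir-259 at the right use mainly the 5p arm, and the vehicle and enoxacin intervals overlap in each hairpin.

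Below the minimum, 19 loci held 1 to 18 reads each. Without a minimum, miR-249-3p had the highest ratio of all 204 loci with reads in both libraries, from 1 read in vehicle and 8 in enoxacin (ratio 9.74, 1.31 to 432). miR-243-3p, which is known to be bound by the Argonaute RDE-1, ranked at 3 from 1 and 5 reads (6.09, 0.681 to 288). These intervals span more than 100-fold, and both levels stayed under 1 RPM. On the table's own coordinates mir-249 lies 1707 bases from mir-785 and 2081 bases from mir-359, both on the opposite strand. These neighbours held 13 and 39 reads over both libraries. miR-234-3p, whose seed is that of mammalian miR-137, had 2 reads in each library.

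Of the other rare loci, miR-78 had 9 reads in each library and miR-260 had 8 and 7. In WBcel235 the mir-78 hairpin overlaps the piRNA genes 21ur-10414 and 21ur-9780 on the same strand, and mir-260 overlaps non-coding RNA genes on the same strand, F39E9.25 among them, so reads from these transcripts cannot be told apart from the miRNA. miR-255-3p had 6 and 5 reads, and its 5p arm 1 and 0. miR-253-3p had 6 and 3, and its 5p arm 0 and 2. miR-254, within an intron of gcy-9, had 0 and 2 reads, and miR-262 had 1 and 0. The minor arms miR-67-5p and miR-231-5p had 4 and 5 reads in vehicle and 1 each in enoxacin, with intervals that included 1. miR-230-5p had 4 and 5 reads, miR-259-3p 4 and 4, miR-85-5p 1 and 2, miR-86-3p 1 and 1, and miR-76-5p 2 and 0.

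In the WBcel235 annotation 36 of the 37 hairpin names matched. Of these, 15 hairpins overlapped no other gene, among them mir-59, mir-63, mir-76 and mir-77. A further 10 lay within an intron of a protein-coding gene on the same strand, as mir-67, mir-70 and mir-86 do. The loci were spread over all 6 chromosomes, and only 3 hairpin names had another hairpin of the table within 10000 bases, namely mir-230, mir-249 and the pair of mir-258 copies. Of the 3 loci counted as higher, miR-59-3p thus came from a hairpin with no overlapping gene, miR-70-3p from an intron on the same strand, and miR-85-3p from a hairpin opposite a gene.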

How the data were processed

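The deposited table lists mature miRNA loci and gives, from the authors, raw read counts, RPM values (counts over 1 fixed total per library), and the enoxacin to vehicle ratio and its log2. That deposited ratio matched the one computed here at all 204 loci with reads in both libraries, with a largest relative difference of 3.77e-15. Bowtie2, bedtools and the build ce10 are named in the submitters' processing notes; the sources used here give no versions, filters, or treatment of strand and multiple matches. The column headed as control was taken as the vehicle library.

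The members and lists were chosen with earlier results of these data known. Ratios used the authors' totals recovered from counts and RPM, with exact conditional binomial (Clopper-Pearson) intervals at 95%; the fold criterion used log2 ratios with a pseudocount of 0.5 reads. Without molecular identifiers reads need not be separate molecules, and intervals and the 3-read floor cover counting error only. No p-value was computed. All members with at least 20 reads were named, and those below by count. Positions are ce10 from the deposited table; the WBcel235 annotation (Ensembl) was used by hairpin name only. A grouping by shared seed could not be computed without mature sequences. Alternatives were other scalings, minima, pseudocount, thresholds and sums per hairpin. Python 3.11.15, scipy 1.17.1, pandas 2.3.3, R 4.3.3 and edgeR 4.0.16 (TMM) were used.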

Additional observations from a re-analysis of the deposited data

How the results depend on the processing

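No paired analysis was possible because each group had 1 library, and for the same reason none could be left out. The 3 higher loci, miR-59-3p, miR-70-3p and miR-85-3p, counted as higher under the 4 other scalings and a pseudocount of 1 read. They also did at a minimum of 100 reads (3 of 13) and, as hairpins, with arms summed (3 of 15). None of the members was lower under any of these. Over all compared loci, 17 to 20 of 152 were higher and 12 to 14 lower under the scalings and the pseudocount. At the minimum of 100 reads 15 of 93 were higher and 6 lower, and with arms summed 13 of 101 and 7. Without a minimum miR-249-3p made 4 of 38, against 23 of all 257 loci with a read. At a threshold of 2-fold 1 was left, miR-59-3p (12 of all 152 loci), and at the lower alternative threshold 5 were higher (35 of all 152), with miR-63-3p and miR-86-5p added. The median log2 ratio of the 19 was 0.26 in the main setting, 0.12 with median-of-ratios and 0.13 with TMM scaling. These shift every log2 ratio by -0.15 and -0.14, and the median of all compared loci was then -0.02 and -0.01. Of 95 values of single loci under the scalings and the pseudocount, 8 fell outside the locus's own counting interval, and no call was altered. For 3 loci without a call, miR-77-5p, miR-232-5p and miR-244-5p, the log2 ratio with the pseudocount changed sign under at least 1 alternative. For miR-232-5p it was 0.008 in the main setting, where the ratio without a pseudocount was already 0.996. Depth limits the 38 loci under 20 reads.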
